A study of Mus musculus with 3 samples.

Results

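Among the sorted cells of 3 pancreatic tumours of the mouse strain KPf/fC, 930 of 19302 cells carried UMIs of the tumour genes Cdkn2a and Hmga2, no UMI of the epithelial gene Epcam, at most 1 UMI of the fibroblast gene Dcn, and at least 1 UMI of Pax6, Lingo2 or Slc14a1. They are called Pax6-Lingo2 cells here. A UMI is a tag that counts 1 captured RNA molecule. The 9 genes used to choose the cells and their comparison classes (Pax6, Lingo2, Slc14a1, Cdkn2a, Hmga2, Epcam, Cdh1, Dcn and Col3a1) are given as levels and carry no test. Tumour 2 held 897 of the 930 cells, tumour 1 held 30 and tumour 3 held 3. The comparison classes were epithelial cells (at least 1 UMI each of Epcam and Cdh1) and fibroblasts (at least 2 UMIs of Dcn, at least 1 of Col3a1, none of Epcam) of the same tumour.

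All 3 tumours shared 1 genotype and no other treatment was labelled. In the KPC family of mouse models, Cre recombinase alters an oncogene and Trp53 in the pancreas, and f/f denotes that both copies of the second gene are floxed. The Cre driver, the ages and the sexes are not given in the labels. Before droplet sequencing of RNA 3′ ends, a sort had kept only cells without surface CD45, CD31 or PDGFRa, the marks of leukocytes, endothelial cells and many fibroblasts. Nothing in the labels says that the 3 tumours came from separate animals. A count at a 3′ end of Trp53 does not check the deleted part of the gene, and Cdkn2a UMIs do not separate its p16Ink4a and Arf transcripts, which share their last exons.

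Pancreatic ductal carcinoma can hold tumour cells that have lost epithelial junctions and keratins and gained vimentin and other mesenchymal genes. Pax6 is a paired-box transcription factor needed for the eye, the brain and the endocrine pancreas. Lingo2 is a leucine-rich repeat membrane protein of the nervous system, and Slc14a1 is a urea transporter. Gap43, a growth-cone protein of extending axons, and Hmga2, a fetal chromatin protein re-expressed in carcinomas, complete the markers by which the cells had been labelled.

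The share of kept cells that met the rule was 0.517% in tumour 1 (exact binomial 95% interval 0.349 to 0.737%), 14.8% in tumour 2 (13.9 to 15.7%) and 0.0404% in tumour 3 (0.00833 to 0.118%). These and all further intervals cover counting error only. The summed depth was 607516 UMIs over the 30 cells of tumour 1, 13750713 over the 897 of tumour 2 and 31760 over the 3 of tumour 3. Pax6-Lingo2 cells were deep: their median was 13840 UMIs per cell in tumour 2, against 9419 in epithelial cells and 8096 in fibroblasts of that tumour. The rule asks for UMIs of several genes, which deeper cells meet more readily, so this depth is in part set by the choice. The libraries had 60801677, 67262634 and 53162622 UMIs in tumours 1, 2 and 3, and the members of tumour 2 shared 6 barcode sequences with tumour 1 and 6 with tumour 3, none of them with a Pax6-Lingo2 cell there. Scrublet scores above 0.25, a sign of a possible doublet, marked 5 of the 897 cells.

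The marker check separated the tumours. In tumour 2, Pax6 was seen in 63.1% of the Pax6-Lingo2 cells, Lingo2 in 69.3%, Slc14a1 in 69.0% and Gap43, which the rule did not use, in 65.3%. All 3 chosen genes were seen in 311 of the 897 cells, exactly 2 in 288 and exactly 1 in 298. In tumour 1, Pax6 and Gap43 had 0 UMIs in all 30 cells, where a count of 0 has a Poisson 95% upper limit of 6.07 CPM (UMI counts scaled to a total of 1000000 per sum). Those 30 cells were in by 25 UMIs of Lingo2 and 24 of Slc14a1, 29 of them had Krt19 UMIs and 18 had Cdh1 UMIs. The 10 epithelial markers outside the rule summed to 7409 CPM in the tumour 1 cells, against 11415 CPM in epithelial cells of that tumour, and to 1131 CPM in the tumour 2 cells, against 9907 CPM in epithelial cells there. The tumour 1 cells therefore went against the label in Pax6, Gap43 and the epithelial markers, though not in Vim, given with the fit over both tumours, and the 3 cells of tumour 3 carried Lingo2 alone among the 3 genes. In those 3 cells the epithelial markers summed to 3054 CPM (Poisson 95% interval 2477 to 3726), above the cells of tumour 2, and 2 of them had Cdh1 UMIs. Gap43 had 0 UMIs there, with a Poisson 95% upper limit of 116 CPM, against 197 CPM in the cells of tumour 2. The 3 cells thus went against the label in Gap43, while Pax6 could not be checked at their depth. What follows describes tumour 2, and tumour 1 is given beside it where the fit over both tumours is used.

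**Figure D1:**
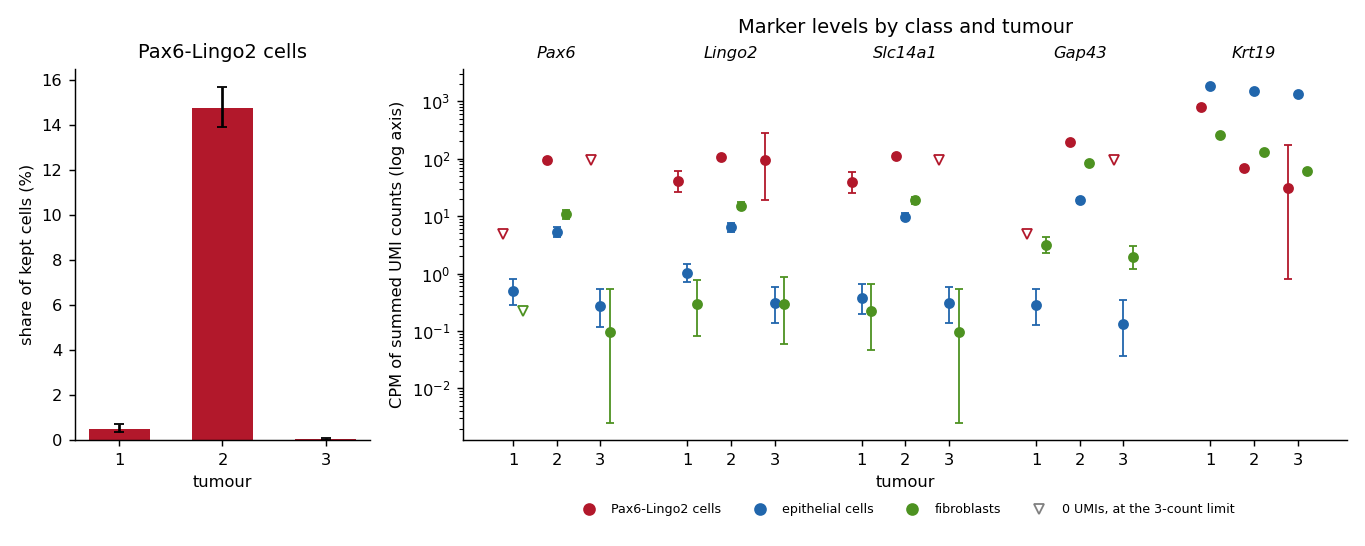
Left, share of kept cells (%) that met the rule in each tumour, with exact binomial 95% intervals. Right, level in CPM of summed UMI counts (log axis) of the 3 chosen genes, Gap43 and Krt19 in Pax6-Lingo2 cells, epithelial cells and fibroblasts of each tumour, with exact Poisson 95% intervals; open triangles mark 0 UMIs at the 3-count limit. Pax6 and Gap43 stand at 96.7 and 197 CPM in the cells of tumour 2 and at 0 UMIs in those of tumours 1 and 3, and Krt19 at 803 CPM in the cells of tumour 1 and 68.8 CPM in those of tumour 2.

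The authors' deposited table, which gives a log2 fold change per gene for each of 19 clusters over pooled cells, placed the 3 genes together as well. Pax6 had its highest values in cluster 6 (3.63) and cluster 10 (2.62) of the authors' deposited table, and a negative value in every other cluster. Lingo2 was at 3.90 and 2.21 in the same clusters and Slc14a1 at 3.11 and 2.66, with Slc14a1 also at 1.94 in cluster 16 of the authors' deposited table. Gap43 was at 2.96 in cluster 6 and 3.03 in cluster 10 of that authors' deposited table, where Nefm, a neurofilament subunit, reached 1.88 and 4.07 and Ibsp, a bone matrix sialoprotein, peaked in cluster 6 at 4.33. The table rests on the same cells, so it is a second view of them and no separate evidence.

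The chosen genes were levels apart from the other classes of tumour 2, and traces of them were measured in every class there. Pax6 was at 96.7 CPM in Pax6-Lingo2 cells (Poisson 95% interval 91.6 to 102), against 5.30 CPM in epithelial cells and 10.8 CPM in fibroblasts. Lingo2 was at 108 CPM, against 6.39 and 15.3 CPM in the same classes, and Slc14a1 at 113 CPM, against 9.85 and 18.9 CPM. In epithelial cells of tumours 1 and 3, Pax6 stood at 0.503 and 0.269 CPM. Genes outside the rule left like traces: the level in epithelial cells of tumour 2 was 9.60% of that in Pax6-Lingo2 cells for Gap43, 10.3% for Nefl, 11.8% for Grp and 5.95% for Cnr1, while Grp had 0.0314 and 0.101 CPM in epithelial cells of tumours 1 and 3. The part of free RNA or of doublets in these traces was not tested; leaving out cells with a Scrublet score above 0.25 kept 892 of the 897 cells.

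Fibroblasts of tumour 2 chosen by Dcn and Col3a1 also carried tumour genes, which bears on every ratio against them. Cdkn2a was at 1538 CPM in them, against 128 CPM in tumour 1 and 475 CPM in tumour 3. Both Cdkn2a and Hmga2 were seen in 509 of the 1312 fibroblasts of tumour 2, UMIs of Pax6, Lingo2 or Slc14a1 in 191, and only 274 had both Cdkn2a and Hmga2 at 0. In those 274 fibroblasts, set apart after the data had been seen, Pax6 was at 1.55 CPM, Lingo2 at 0 UMIs and Gap43 at 4.12 CPM. Their median depth was 6650.5 UMIs per cell, against 8096 in all fibroblasts of tumour 2. They are called free of Cdkn2a and Hmga2 below, though 0 UMIs at this depth need not mean absence. The Dcn limit of the rule cut through a wider set: of 1854 cells of tumour 2 with no Epcam and with Cdkn2a and Hmga2 UMIs, 535 had 2 or more Dcn UMIs, and 169 of these carried 1 of the 3 genes.

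Just inside the other threshold, the 167 cells of tumour 2 with a single UMI of the 3 genes had Gap43 at 120 CPM, Hmga2 at 778 CPM and Cdkn2a at 2031 CPM. Just outside it, the 422 cells that met the rest of the rule but had none of the 3 genes had Gap43 at 101 CPM, Hmga2 at 577 CPM and Cdkn2a at 2229 CPM. The 327 cells with 6 or more UMIs had Gap43 at 231 CPM, Hmga2 at 1477 CPM and Cdkn2a at 1105 CPM. The median depth was 13164 UMIs per cell just inside, 10030 just outside and 16402 in the cells with 6 or more UMIs. The bins are cut by genes of the rule, and Hmga2 and Cdkn2a belong to it, so these values only describe the threshold.

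Against epithelial cells of tumour 2, the Pax6-Lingo2 cells had high mesenchymal, neuronal-type and proliferation genes and almost none of the junction, mucin and gastric-type genes. Tumour 2 is 1 library, so the comparison has no replicate check, and a gene is called higher or lower at a ratio of at least 2-fold in summed CPM, a sum under 3 counts being set to 3 counts. Of 10605 genes with at least 100 UMIs in both sums together, 932 (8.79%) were higher and 1504 (14.2%) lower. The median log2 ratio over them was 0.02.

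Several developmental transcription factors were among the genes that the naming rule picked for their ratios. Alx1, an aristaless-type homeobox factor of the craniofacial mesenchyme, was at 8.22 CPM in Pax6-Lingo2 cells, against 0.379 CPM in epithelial cells and 0.460 CPM in fibroblasts. Dach1, a transcriptional cofactor of the dachshund family, was at 9.09 CPM, against 0.866 and 1.07 CPM in the same classes, and Phox2a, an autonomic neuron factor, at 8.0 CPM, against 0.812 and 1.92 CPM. All 3 had 0 UMIs in the 30 cells of tumour 1, where levels up to 4.94 CPM could not be detected. Prrx1, a limb and head mesenchyme factor, was at 285 CPM in Pax6-Lingo2 cells, against 27.5 CPM in epithelial cells and 253 CPM in fibroblasts.

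Genes of growing axons and of nerve cells formed the next group. The axon list had 40 genes, of which 29 were measured; 14 (against a background of 8.79%) were higher than in epithelial cells and 5 lower (background 14.2%), with a median log2 ratio of 0.86. Against fibroblasts, 6 of 31 were higher (background 4.11%) and 10 lower (background 10.0%), and against the 274 fibroblasts free of Cdkn2a and Hmga2, 11 of 27 were higher (background 14.4%) and 7 lower (background 10.8%). Against gate cells without the 3 genes, 4 of 26 were higher (background 2.88%) and 3 lower (background 1.90%). Of the 8 neuron markers, 4 were measured against those gate cells, with 2 higher and none lower. Of 22 genes of synaptic adhesion, 8 were measured against epithelial cells, with 2 higher and 2 lower. Nefl, the light neurofilament subunit, was at 255 CPM in Pax6-Lingo2 cells, against 26.3 CPM in epithelial cells and 44.1 CPM in fibroblasts. Nefm, the medium subunit, was at 99.3 CPM, against 11.7 and 23.1 CPM. Tubb3, the neuronal tubulin, and Stmn2, a microtubule regulator of growth cones, were at 63.3 and 685 CPM in Pax6-Lingo2 cells, against 7.96 and 120 CPM in epithelial cells. Stmn2 was also at 262 CPM in fibroblasts of tumour 2 and 278 CPM in the 274 free of Cdkn2a and Hmga2. In fibroblasts of tumours 1 and 3 it was at 221 and 151 CPM. Sema3a, a secreted repellent of axons, was at 38.4 CPM, against 3.19 CPM in epithelial cells, whereas Sema3e and Slit2 were lower, at 3.20 and 8.95 CPM, against 16.7 and 32.4 CPM.

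Most markers of the endocrine pancreas, where Pax6 normally acts, were not detected. Of the 8 neuron markers, 7 had UMIs, but epithelial cells and fibroblasts of tumour 2 also had only 1 of them at 0. Detection of these markers therefore did not set the cells apart. The undetected one in Pax6-Lingo2 cells, Rbfox3, a nuclear protein of mature neurons, had 0 UMIs of 13750713. Of the 10 endocrine markers, Ins1, Ins2, Sst, Iapp, Pcsk1 and Pcsk2 were at 0, and the 10 summed to 4.95 CPM, against 34.5 CPM in epithelial cells. The endocrine and neural factors Neurog3, Neurod1, Pax4, Sox1, Otx2, Six3 and Six6 had no UMI either. Schwann markers summed to 5.75 CPM, against 93.2 CPM in epithelial cells, with Sox10 and Foxd3 at 0.

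A peptide, a receptor and a structural protein were also picked by the naming rule. Grp, the gastrin-releasing peptide, was at 247 CPM in Pax6-Lingo2 cells, against 29.1 CPM in epithelial cells and 23.8 CPM in fibroblasts. It was seen in 32.2% of the cells. Cnr1, the cannabinoid receptor of nerve terminals, was at 22.8 CPM, against 1.35 and 2.07 CPM, and Pgm5, a phosphoglucomutase relative of muscle adhesion sites, at 40.1 CPM, against 3.19 and 4.75 CPM. Crabp1, a retinoic acid binding protein named here after its values were seen, was at 466 CPM, against 62.4 and 280 CPM.

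**Figure D2:**
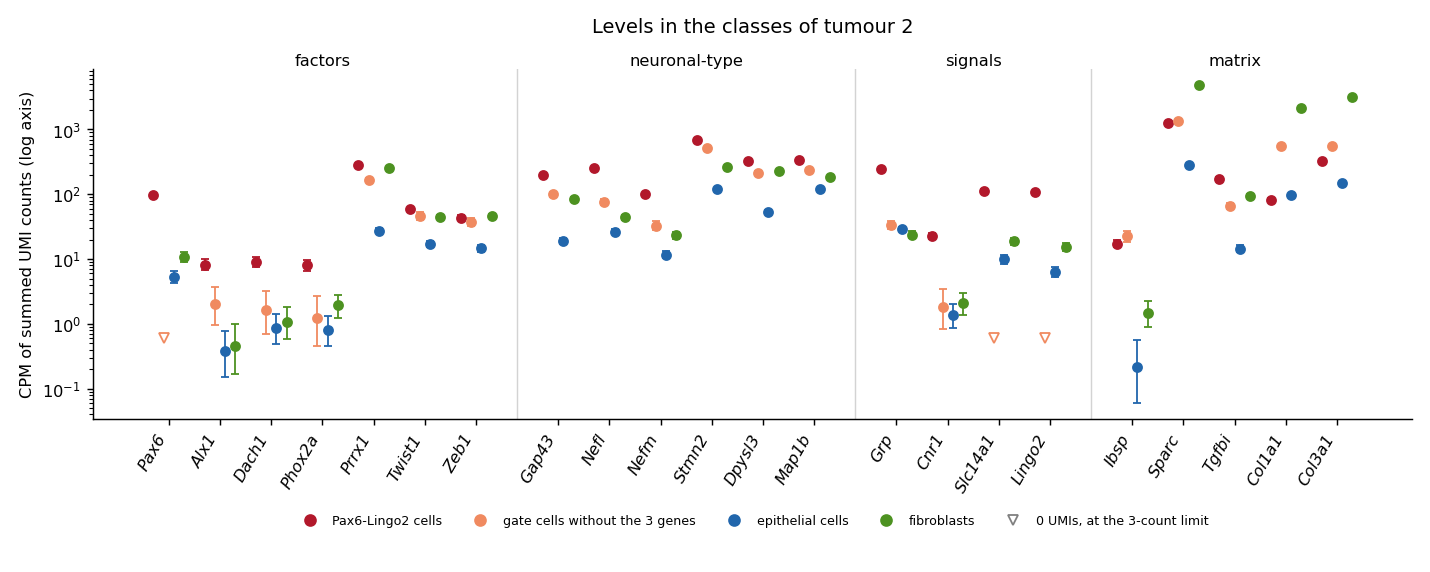
Level in CPM of summed UMI counts (log axis) of 22 genes in Pax6-Lingo2 cells, cells of the same gate without Pax6, Lingo2 and Slc14a1, epithelial cells and fibroblasts of tumour 2, with exact Poisson 95% intervals; open triangles mark 0 UMIs at the 3-count limit. Alx1, Dach1, Phox2a, Grp and Cnr1 are highest in Pax6-Lingo2 cells, Prrx1, Twist1 and Zeb1 are at like levels in Pax6-Lingo2 cells and fibroblasts, and the collagens are highest in fibroblasts.

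Genes of the classical tumour type and most endodermal factors were lower than in epithelial cells, while the simple keratins were kept at a lower level. Of the 18 genes that mark the classical type of pancreatic tumour, 17 were measured and all 17 (background 14.2%) were lower than in epithelial cells, with a median log2 ratio of -5.90. Tff1, a gastric trefoil peptide, was at 34.4 CPM in Pax6-Lingo2 cells, against 2691 CPM in epithelial cells, and Agr2, a mucin chaperone, at 7.93 CPM, against 620 CPM. Of 14 genes of the basal-like type, 5 were measured and 4 were lower. Among 13 measured endodermal and pancreatic factors, 10 were lower. Onecut2, a hepatopancreatic factor, was at 9.67 CPM, against 727 CPM, and Hnf4a, a gut and liver nuclear receptor, at 0.509 CPM, against 22.7 CPM. Pdx1 and Sox9, which mark pancreatic progenitors, were the exceptions by level, at 25.5 and 155 CPM, against 21.9 and 187 CPM in epithelial cells and 7.74 and 60.2 CPM in fibroblasts. Krt8 and Krt18, the simple-epithelium keratins, were at 431 and 582 CPM, against 2011 and 3330 CPM.

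The genes of epithelial-to-mesenchymal transition lay in 2 blocks. Of 18 measured, 12 were higher than in epithelial cells (background 8.79%) and 4 lower (background 14.2%), with a median log2 ratio of 1.84. Vim, the mesenchymal intermediate filament, was at 3545 CPM, against 720 CPM, and Cdh2, N-cadherin, at 57.2 CPM, against 12.3 CPM. The repressors of epithelial genes Zeb1, Zeb2, Twist1 and Snai1 were at 43.6, 86.3, 58.2 and 12.6 CPM, against 14.7, 22.8, 17.2 and 2.87 CPM. Grhl2 and Esrp1, which maintain epithelial transcription and splicing, were at 0.291 and 0.436 CPM, against 10.9 and 26.0 CPM; 4 and 6 UMIs stood behind these values. Of 17 measured receptor tyrosine kinases, 4 were higher (background 8.79%) and 7 lower (background 14.2%): Pdgfra, Ddr2, Fgfr1 and Axl were higher, at 29.2, 51.0, 101 and 155 CPM, against 4.22, 8.99, 29.7 and 45.6 CPM, and Erbb3, Fgfr2 and Erbb2 were lower, at 1.31, 0.218 and 4.36 CPM, against 54.9, 8.34 and 23.9 CPM. Pdgfra RNA was seen in 33.0% of the cells although the sort had excluded surface PDGFRa.

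**Figure D3:**
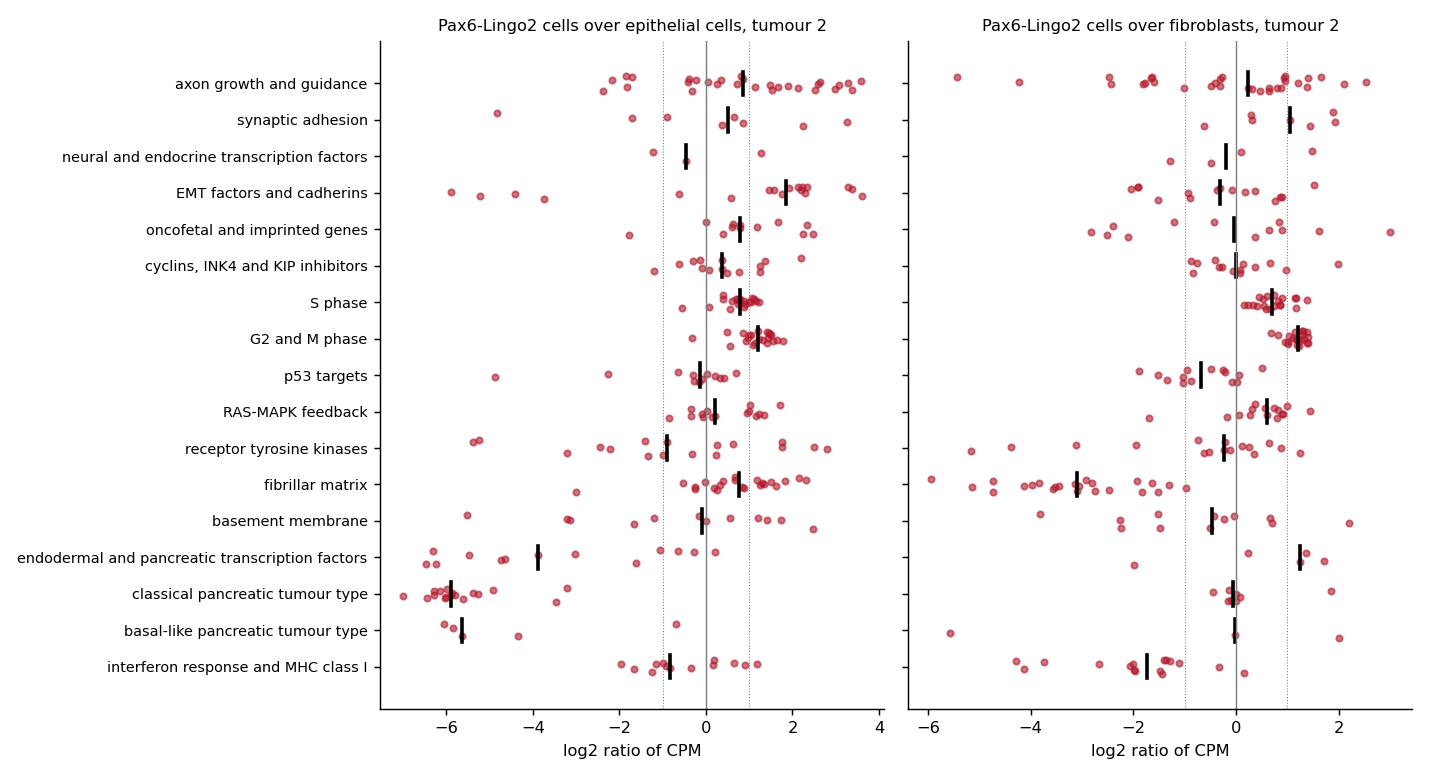
Log2 ratio of CPM of each measured gene of 17 lists in Pax6-Lingo2 cells over epithelial cells (left) and over fibroblasts (right) of tumour 2; each point is a gene, black bars are medians and dotted lines mark the 2-fold limits. The classical list lies at a median of -5.90 on the left and -0.05 on the right, the fibrillar matrix list at 0.76 on the left and -3.09 on the right, and the G2 and M phase list at 1.21 and 1.20.

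Against fibroblasts of tumour 2, the Pax6-Lingo2 cells were lower in connective-tissue matrix and higher in proliferation genes. Of 10028 genes, 412 (4.11%) were at least 2-fold higher and 1005 (10.0%) lower; against the 274 fibroblasts free of Cdkn2a and Hmga2 the counts were 1237 and 931 of 8599 (14.4% and 10.8%). Of 23 fibrillar matrix genes, 22 were lower (background 10.0%), with a median log2 ratio of -3.09. The choice of the classes by Dcn and Col3a1 in part set this direction. Against epithelial cells, 9 of 22 were higher (background 8.79%). Col1a1, the main chain of type I collagen, was at 81.1 CPM in Pax6-Lingo2 cells, against 2169 CPM in fibroblasts, and Postn, a matrix protein of activated fibroblasts, at 12.9 CPM, against 346 CPM. Sparc, a collagen-binding protein, was at 1270 CPM, against 4792 CPM in fibroblasts and 279 CPM in epithelial cells. Of 15 measured genes of epithelial-to-mesenchymal transition, 10 lay within 2-fold of fibroblasts, among them Zeb1, Zeb2, Twist1, Prrx1, Vim and Fn1; against the 274 fibroblasts free of Cdkn2a and Hmga2, 5 of 13 did, with 4 higher and 4 lower.

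Genes of the interferon response and of antigen presentation were mostly lower in these cells than in fibroblasts. Of 16 measured against fibroblasts, 14 were lower, with a median log2 ratio of -1.73, and of 13 measured against epithelial cells, 4 were lower and 1 higher, with a median of -0.82. H2-K1 and H2-D1, the class I heavy chains, were at 36.9 and 78.0 CPM in Pax6-Lingo2 cells, against 117 and 173 CPM in epithelial cells and 145 and 190 CPM in fibroblasts. Psmb8, an immunoproteasome subunit, was at 2.47 CPM, against 9.69 and 43.1 CPM. B2m, the shared light chain, was at 1250 CPM, against 553 and 1569 CPM, apart from the rest of the list.

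Oncofetal and imprinted genes split. Of 12 measured, 5 were higher (background 8.79%) and 1 lower (background 14.2%) than in epithelial cells, and 2 were higher (background 4.11%) and 5 lower (background 10.0%) than in fibroblasts. Against the 274 fibroblasts free of Cdkn2a and Hmga2 the split turned, with 5 of 11 higher (background 14.4%) and 1 lower (background 10.8%). Igf2bp1, which stabilises fetal and oncogene mRNAs, was at 40.3 CPM, against 7.20 CPM in epithelial cells and 5.06 CPM in fibroblasts, and Hmga1, a chromatin protein related to Hmga2, was at 90.0 CPM, against 39.5 and 29.1 CPM. Hmga2, a gene of the rule, was at 1240 CPM, against 317 CPM in each of the classes. The imprinted Meg3, a long noncoding RNA, was at 994 CPM, against 210 CPM in epithelial cells and 772 CPM in fibroblasts, and the imprinted Igf2, a fetal growth factor, at 18.5 CPM, against 10.8 and 106 CPM.

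Against the nearest population, the 422 cells of tumour 2 with the same gate and none of the 3 genes, fewer genes differed. At least 2-fold, 253 of 8780 genes (2.88%) were higher and 167 (1.90%) lower. Grp was at 247 CPM in Pax6-Lingo2 cells, against 33.5 CPM in the cells without the 3 genes, and Cnr1 at 22.8 CPM, against 1.83 CPM. Prkcb, a protein kinase C isoform, was at 13.4 CPM, against 1.02 CPM. Of 21 measured fibrillar matrix genes, 11 were lower (background 1.90%), with Col1a1 at 81.1 CPM, against 554 CPM. The 8 fibroblast markers outside the rule summed to 488 CPM in Pax6-Lingo2 cells, against 1338 CPM in the cells without the 3 genes, and the acinar markers to 71.9 CPM, against 304 CPM; their part in the matrix values was not tested. The lowest ratio was that of Cck, the cholecystokinin hormone, with 3 UMIs (0.218 CPM) in Pax6-Lingo2 cells, against 51.6 CPM. The 2 populations differed in median depth, at 13840 UMIs per Pax6-Lingo2 cell and 10030 per cell without the 3 genes. With all classes chosen on counts thinned to 3000 UMIs per cell, 67 of 9366 genes were higher and 156 lower.

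Within tumour 2 the Pax6-Lingo2 cells varied among themselves along neurofilament UMIs. With each cell thinned to 3000 UMIs, 356 of 897 cells (39.7%) showed Nefl or Nefm and 541 showed neither. At least 2 UMIs of G2 and M phase genes were seen in 49.7% of the cells with neurofilament UMIs (exact binomial 95% interval 44.4 to 55.0%), against 19.8% of those without (16.5 to 23.4%). Grp was at 344 CPM in the cells with neurofilament UMIs, against 148 CPM in those without, Crabp1 at 632 CPM, against 290 CPM, and Krt8 at 508 CPM, against 262 CPM. Sparc went the other way, at 1007 CPM, against 1737 CPM. Pax6 was at 89.9 CPM, against 120 CPM, Lingo2 at 125 CPM, against 124 CPM, and Slc14a1 at 172 CPM, against 94.9 CPM; every cell had been admitted by UMIs of these 3 genes.

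Ibsp, which had the highest ratio to epithelial cells of any gene named by the rule (17.3 CPM in Pax6-Lingo2 cells, against 0.217 CPM), was a gene of few cells. It was seen in 3.23% of the Pax6-Lingo2 cells before thinning and in 15 of 897 after it, at 1533 CPM in those 15. Only 1 of the 15 had neurofilament UMIs, and 0 of the 15 had 2 or more UMIs of G2 and M phase genes, with an exact binomial upper limit of 21.8%. Col1a1, Grp and Crabp1 had no UMI in these 15 cells. The cells without Pax6, Lingo2 and Slc14a1 had Ibsp at 22.4 CPM. Among the thinned Pax6-Lingo2 cells, Ibsp was at 63.0 CPM in the 127 with Lingo2 alone of the 3 genes (Poisson 95% interval 40.4 to 93.7), 9.62 CPM in the 104 with Pax6 alone (1.98 to 28.1) and 7.75 CPM in the 129 with Slc14a1 alone (1.60 to 22.7). All these Ibsp UMIs come from the same 15 cells, several per cell. The intervals treat UMIs as independent and are therefore too narrow to compare the 3 groups.

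**Figure D4:**
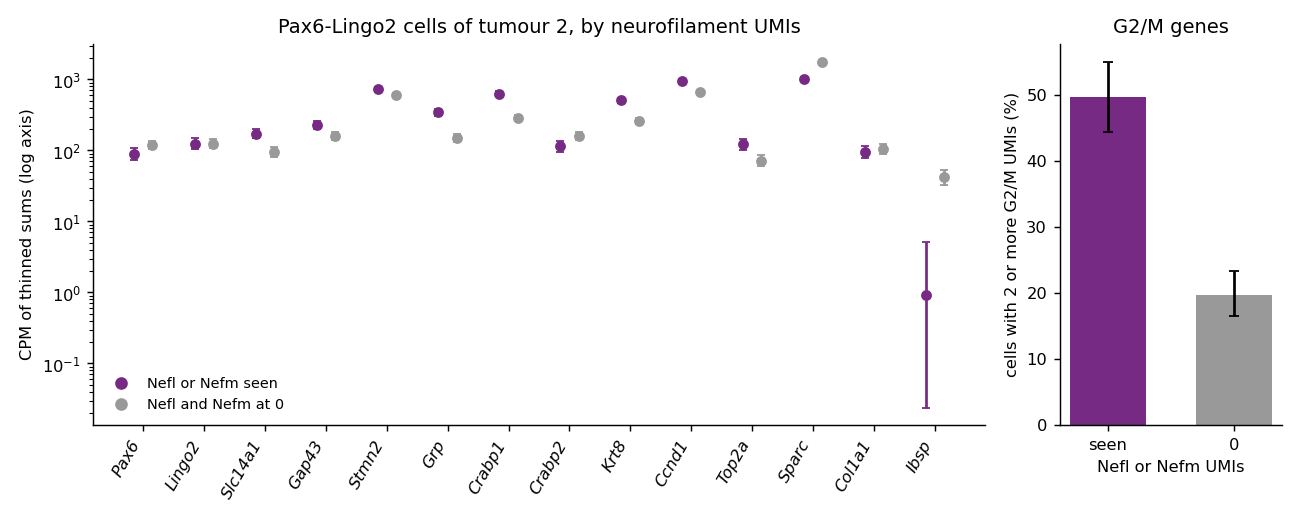
Left, level in CPM of sums of cells thinned to 3000 UMIs (log axis) of 14 genes in the 356 Pax6-Lingo2 cells of tumour 2 with Nefl or Nefm UMIs and the 541 without, with exact Poisson 95% intervals. Right, share of these cells (%) with at least 2 UMIs of G2 and M phase genes, with exact binomial 95% intervals. The share is 49.7% with and 19.8% without neurofilament UMIs, and Ibsp is at 0.936 CPM with and 41.9 CPM without them.

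Proliferation genes were high in the class as a whole. After thinning, at least 2 UMIs of G2 and M phase genes were seen in 31.7% of Pax6-Lingo2 cells (28.6 to 34.8%), 25.1% of the gate cells without the 3 genes (21.0 to 29.5%), 11.8% of epithelial cells (10.3 to 13.4%) and 10.7% of fibroblasts (9.12 to 12.6%) of tumour 2. Without thinning the shares were 53.3, 46.2, 26.0 and 21.6%. The gate cells without the 3 genes were not uniform. After thinning, the share was 30.4% (24.6 to 36.7%) in the 237 of them with UMIs of Cst6 or Crabp2, like that of Pax6-Lingo2 cells. It was 18.4% (13.1 to 24.7%) in the 185 with neither. Among the Pax6-Lingo2 cells, 613 of 897 also had UMIs of Cst6 or Crabp2. Of the 22 G2 and M phase genes, 15 were at least 2-fold higher than in epithelial cells and 19 than in fibroblasts, none lower. Of 20 S phase genes, 5 were higher than in epithelial cells (background 8.79%) and 4 than in fibroblasts (background 4.11%), none lower. Against the 274 fibroblasts free of Cdkn2a and Hmga2, 17 of 19 S phase genes and 21 of 22 G2 and M phase genes were higher (background 14.4%). Top2a, the mitotic topoisomerase, was at 115 CPM, against 42.7 and 48.2 CPM. Ccnd1, cyclin D1, was at 883 CPM, against 372 and 223 CPM, while Ccnd2 was lower, at 126 CPM, against 290 and 225 CPM. Of 15 feedback genes of the RAS-MAPK pathway, 6 were higher than in epithelial cells (background 8.79%) and none lower. Fosl1 (42.0 CPM, against 12.7 CPM) and Etv4 (75.8 CPM, against 29.9 CPM) were among the 6. Against fibroblasts, 1 of the 15 was higher (background 4.11%) and 1 lower (background 10.0%). Against gate cells without the 3 genes, 1 was higher (background 2.88%) and 1 lower (background 1.90%). Against the 274 fibroblasts free of Cdkn2a and Hmga2, 8 were higher (background 14.4%) and 1 lower (background 10.8%). Of 12 measured targets of p53, none was higher than in epithelial cells (background 8.79%) and 2 were lower (background 14.2%). Cdkn1a was at 73.0 CPM, against 89.3 CPM. Against fibroblasts, 5 of 14 were lower (background 10.0%). Against the 274 fibroblasts free of Cdkn2a and Hmga2, 4 of 10 were lower (background 10.8%). Against gate cells without the 3 genes, 1 of 11 was lower (background 1.90%). None was higher in these 3 comparisons.

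The only replicated comparison the cells allowed was over tumours 1 and 2, with 1 residual degree of freedom, and it joins the 897 cells of tumour 2 with 30 keratin-rich cells of tumour 1. With edgeR's quasi-likelihood test, the tumour as a block and Benjamini-Hochberg adjustment at 0.05, 61 of 13256 genes (0.460%) were higher and 396 (2.99%) lower than in epithelial cells. At an unadjusted p under 0.05 there were 2200 genes in both directions together. Without the block the adjusted counts were 0 and 111, with 548 and 1575 at an unadjusted p under 0.05, and DESeq2 with the block called 75 and 501. Vim rose by 2.33 ± 0.21 on the log2 scale (SE, adjusted p = 0.0029, edgeR), to 2769 CPM in the cells of tumour 1 and 3545 CPM in those of tumour 2, against 549 and 720 CPM in epithelial cells. Cdh2 rose by 2.38 ± 0.33 (adjusted p = 0.015, edgeR) and Agr2 fell by 6.25 ± 0.29 (adjusted p = 0.00045, edgeR), with both tumours on the same side. Without the block the calls of Vim and Cdh2 were lost (adjusted p = 0.05003 and 0.099, edgeR) and that of Agr2 was not (adjusted p = 0.024, edgeR). Of 21 genes of epithelial-to-mesenchymal transition, 3 rose and 2 fell. None of the 22 G2 and M phase genes passed the test, with a median log2 fold change of 0.75. Of the 18 genes of the classical type, 13 (background 2.99%) fell, a direction in part set by the choice of both classes by Epcam. Of the 36 tested axon genes, 5 (background 0.460%) rose: Gap43, Nefl, Nefm, Dpysl3 and Map1b. With RLE scaling only Nefl remained called among these 5 (adjusted p = 0.017, edgeR), the others standing at 0.066 to 0.080. Without the block none of the 5 did (adjusted p = 0.24 to 0.59, edgeR), and without cells of a high Scrublet score Map1b did not (adjusted p = 0.055, edgeR). Against fibroblasts, 4 of 35 axon genes rose (background 1.29%) and 7 fell (background 6.81%). Gap43, Nefl and Nefm had 0, 1 and 0 UMIs in the 30 cells of tumour 1, so that their calls rest on tumour 2 alone; Dpysl3 and Map1b were at 82.3 and 151 CPM in those cells, against 34.4 and 74.9 CPM in the epithelial cells of tumour 1.

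**Figure D5:**
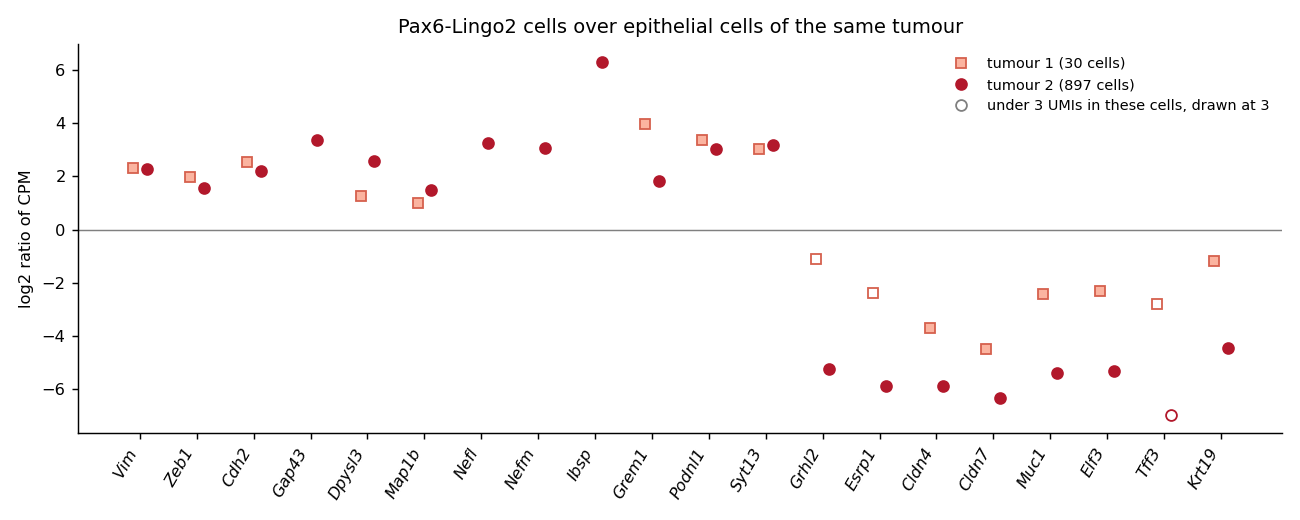
Log2 ratio of CPM in Pax6-Lingo2 cells over epithelial cells of the same tumour for 20 genes, squares for the 30 cells of tumour 1 and circles for the 897 cells of tumour 2; open symbols have under 3 UMIs in these cells and are drawn at 3 counts where the ratio is then below 0. Vim, Zeb1 and Cdh2 have like ratios in both tumours, and the epithelial genes from Grhl2 to Krt19 are drawn lower in tumour 2 than in tumour 1. An open square is an upper limit set by depth, so for it no difference between the tumours was measured. Gap43, Nefl, Nefm and Ibsp, with 0 or 1 UMI in tumour 1, have no square, since their ratio at 3 counts would be above 0.

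Against fibroblasts, the same fit called 170 of 13142 genes (1.29%) higher and 895 (6.81%) lower, with 2240 in both directions together at an unadjusted p under 0.05. Without the block edgeR called 0 in either direction, with 368 higher and 1556 lower at an unadjusted p under 0.05, and DESeq2 with the block called 79 and 609. All 23 fibrillar matrix genes (background 6.81%) fell, a direction in part set by the choice of the classes by Dcn and Col3a1. Col1a1 fell by 5.92 ± 0.56 on the log2 scale (SE, adjusted p = 8.1e-06, edgeR), to 26.3 CPM in the cells of tumour 1 and 81.1 CPM in those of tumour 2. Of 19 tested genes of interferon response and antigen presentation, 10 fell (background 6.81%) and none rose. Ccnd1 rose by 2.85 ± 0.45 (adjusted p = 0.00063, edgeR) and Hmga1 by 2.77 ± 0.55 (adjusted p = 0.0040, edgeR), a call that DESeq2 did not make (adjusted p = 0.060). Without the block these 3 calls were lost (adjusted p = 0.063 for Col1a1, 0.38 for Ccnd1 and 0.38 for Hmga1, edgeR). Snap25 and Areg, among the 12 highest log2 fold changes against fibroblasts, were at 21.4 and 464 CPM in the 30 cells of tumour 1 and 3.56 and 64.8 CPM in the cells of tumour 2, so they were higher in tumour 1. Cnr1, at 0 UMIs in tumour 1, did not pass against epithelial cells (adjusted p = 0.077, edgeR), nor did Prrx1 (adjusted p = 0.51, edgeR).

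Markers of other cell types were measured as sums in the Pax6-Lingo2 cells of tumour 2, and their part in the results above was not tested. The 8 fibroblast markers outside the rule summed to 488 CPM, against 260 CPM in epithelial cells and 5648 CPM in fibroblasts. The pericyte and smooth muscle markers summed to 447 CPM, against 139 and 844 CPM, and the 8 endothelial markers to 21.9 CPM, against 12.2 and 25.8 CPM. Macrophage markers summed to 14.8 CPM with Adgre1 and C1qa at 0, against 119 and 26.1 CPM, and lymphocyte and erythroid markers to 0.364 and 0.291 CPM. Mesothelial markers summed to 18.4 CPM, against 297 and 253 CPM, and acinar markers to 71.9 CPM with Pnlip at 0, against 87.7 and 23.8 CPM. The 8 neuron markers, which include Nefl and Nefm, summed to 1107 CPM, against 167 and 362 CPM. Stmn2 alone gave 685 CPM of this sum, against 120 and 262 CPM. In the gate cells of tumour 2 without the 3 genes, the 8 neuron markers summed to 663 CPM, also above epithelial cells and fibroblasts.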

How the data were processed

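Sorted cells of 3 KPf/fC tumours were profiled with the 10x v2 kit for RNA 3′ ends. The authors deposited 1 matrix of raw UMI counts, in which the end of a barcode names its tumour per the labels, and a table of log2 fold changes by cluster per the file headers. Cell Ranger 2.1.1 and Seurat 3.0 appear in the submitters' processing notes. The sources used here give neither the genome build, the role of each tool nor the test behind the cluster table.

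Barcodes with under 500 genes or over 20% mitochondrial UMIs were left out (19302 of 19576 kept). Classes were chosen by UMIs of 9 genes, summed per tumour and expressed as CPM with exact Poisson intervals; a sum under 3 counts was set to 3 for ratios. Shares were also computed after thinning each cell to 3000 UMIs; the classes of tumours 1 and 2 had no shallower cell. Doublets were kept and removed as an alternative (Scrublet score above 0.25 in scanpy 1.11.5, which marked 1.45 to 2.13% of kept cells). Sums of tumours with at least 20 Pax6-Lingo2 cells were tested with edgeR 4.0.16 (quasi-likelihood, TMM, filterByExpr, tumour as block since both sums come from 1 tumour, R 4.3.3), checked on simulated counts. The SE of a log2 fold change is its size divided by the root of F. Alternatives were DESeq2 1.42.0, RLE scaling, no filter, no block, other gates and stricter cell filters.

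Named genes were the 12 highest and 12 lowest ratios per comparison among genes with at least 100 UMIs in both sums (in the edgeR fits, among genes past 0.05 with 1 sign in both tumours) and members of the gene lists, from which examples were taken. Members and lists were chosen with earlier results of these data known. P-values measure the spread between 2 tumours only.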

Additional observations from a re-analysis of the deposited data

How the results depend on the processing

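The edgeR counts depended most on the model. Against epithelial cells (61 higher, 396 lower), RLE scaling gave 27 and 232, no filter on low counts 377 and 1269, and no replicate block 0 and 111. Against fibroblasts (170 higher, 895 lower), DESeq2 gave 79 higher, no filter 303 higher, and no replicate block 0 and 0. The blocked fit pairs both sums of a tumour, and no fit without replicate 1 or replicate 2 could be made, since 1 tumour would remain; replicate 3 was in no fit. With at least 2 UMIs of the 3 genes, with no epithelial UMIs or with thinned classes, tumour 1 kept under 20 cells and edgeR could not be fitted.

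In tumour 2, members without UMIs of Krt19, Cldn4, Cldn7, Muc1, Elf3 and Cdh1 gave 262 genes higher than fibroblasts (412 as reported) and 148 higher than gate cells without the 3 genes (253), thinned classes gave 67 of the latter comparison, and fibroblasts free of Cdkn2a and Hmga2, chosen after seeing the data, gave 1237 higher. The share in tumour 2 was 12.02% with 2 UMIs of the 3 genes, 6.06% without the 6 epithelial genes and 9.55% on thinned counts; in tumour 1 it was 0.190%, 0% and 0.138%, and in tumour 3 it was 0% with 2 UMIs and on thinned counts.

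Of 4075 values of single genes in tumour 2, 1031 moved beyond the counting interval of their ratio and 6 changed direction: Dlk1 (2.54) and Gdf15 (0.40) against the fibroblasts free of Cdkn2a and Hmga2, and, against gate cells without the 3 genes, Cfd (-0.19 with 2 UMIs, -0.41 without the 6 epithelial genes, -3.34 on thinned counts) and Col11a1 (0.21 on thinned counts). Of 1133 edgeR values of single genes, 257 kept their direction and lost the call, and none changed direction; of the 171 calls, 157 were lost without the block, 31 with DESeq2 and 24 with RLE scaling. The cause was not tested. Depth limits the tumour 1 and 3 cells: 0 UMIs in the 30 cells of tumour 1 allow up to 4.94 CPM.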
